A study of Mus musculus with 288 samples.

Results

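Pzp, Pgc, Gpx3, Crp, Habp2, Cyp2j5, Serpina1e and Entpd8 are 8 of the 46078 mouse genes counted in single enteroendocrine cells of the mouse upper small intestine. They were chosen because earlier results from these cells placed them together in cells that express Pzp, so their levels in those cells are given as a description and without a test. Cells came from 3 male GLU-Venus mice aged 20 to 21 weeks, in which the fluorescent protein Venus is made under the control of the proglucagon promoter, and they were sorted by flow cytometry into wells and sequenced by the full-length Smart-seq2 protocol. The labels call all 288 samples L-cells and divide them into 3 pools of 96 cells, the shallow pools SLX-11175 and SLX-11179 and the deep pool SLX-9703; they name neither the mouse nor the Venus fluorescence of a cell, and by the study's methods the 2 shallow pools also held non-fluorescent control cells. Values for the pools are given in that order. There was no treatment, and the pool is the replicate throughout.

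Most of these genes are known from the liver, which releases inhibitors of proteases, transport proteins and acute phase proteins into the plasma. Enteroendocrine cells are scattered through the gut epithelium and release peptide hormones such as GLP-1, GIP, cholecystokinin and neurotensin, or serotonin. Pzp and Serpina1e encode inhibitors of proteases, Pgc and Habp2 encode proteases made as inactive precursors, Crp encodes an acute phase protein that binds to membranes of bacteria and dying cells, and Gpx3 encodes the glutathione peroxidase of plasma. The 2 other genes do not encode secreted proteins. Cyp2j5 encodes a cytochrome P450 of the endoplasmic reticulum that oxidizes arachidonic acid, and Entpd8 encodes an ectonucleotidase of the cell surface that splits extracellular nucleotides.

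Of the 288 cells, 250 had at least 20000 reads on mouse genes and no more than 20% of them on mitochondrial genes, namely 75, 87 and 88 cells per pool. The median depth of these cells was 52571 and 70726 reads in the shallow pools and 1975710 reads in the deep pool SLX-9703. Levels are counts relative to the reads on mouse genes of the same cell (CPM), so that 10000 CPM are 1% of these reads. A cell with at least 100 CPM of Pzp is called Pzp-positive. The other cells are called Gip-high, Gcg-high or Cck-high, in this order of precedence, where they held at least 10000 CPM of the gene for GIP, proglucagon or cholecystokinin, and Gip/Gcg/Cck-low where they held less of all of these. Nts, the gene for neurotensin, had no part in this naming, and 12 of the 66 Gip/Gcg/Cck-low cells held at least 10000 CPM of it. Means of this class are therefore also given without these 12 cells, a choice made after the values had been seen.

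The promoters of the 8 genes are introduced first because the genes were found in the same cells. The RefSeq promoter table of the build GRCm38.p6 held a window for each of the 8 genes, from 250 bases before to 50 bases after the start of transcription. Each window was searched on both strands for the letters CAAAGT and the longer CAAAGTCCA that contains it (HNF4), TGTTTAC and TGTTTGC (FOXA), TTGCGCAA (C/EBP) and TATAAA (the TATA box). The sequences below run 5′ to 3′ on the strand of the gene and carry the matches in capitals. They are the windows of the 3 genes with TATAAA and that of Serpina1e, which held TGTTTGC. They lie at chr1:172697806-172698105 on the plus strand (Crp), chr17:47726592-47726891 on the plus strand (Pgc), chr4:96664070-96664369 on the minus strand (Cyp2j5) and chr12:103956848-103957147 on the minus strand (Serpina1e).
Crp: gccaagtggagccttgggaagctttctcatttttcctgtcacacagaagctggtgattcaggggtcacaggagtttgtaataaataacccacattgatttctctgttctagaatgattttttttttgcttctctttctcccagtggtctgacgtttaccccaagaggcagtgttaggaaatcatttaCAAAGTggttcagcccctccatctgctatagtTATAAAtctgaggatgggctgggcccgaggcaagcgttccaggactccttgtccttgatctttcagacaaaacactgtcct
Pgc: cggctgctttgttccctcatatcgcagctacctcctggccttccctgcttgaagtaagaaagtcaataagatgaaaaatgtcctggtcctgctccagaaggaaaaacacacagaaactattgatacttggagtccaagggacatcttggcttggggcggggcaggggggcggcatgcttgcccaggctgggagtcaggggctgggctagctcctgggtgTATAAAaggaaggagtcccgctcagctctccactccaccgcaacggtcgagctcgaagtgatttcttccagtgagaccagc
Cyp2j5: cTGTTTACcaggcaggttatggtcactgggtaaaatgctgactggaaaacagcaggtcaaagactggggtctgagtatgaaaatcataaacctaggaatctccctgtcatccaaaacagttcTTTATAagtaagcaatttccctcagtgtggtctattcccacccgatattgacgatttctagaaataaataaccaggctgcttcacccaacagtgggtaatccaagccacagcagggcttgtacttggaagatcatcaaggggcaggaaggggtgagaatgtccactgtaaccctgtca
Serpina1e: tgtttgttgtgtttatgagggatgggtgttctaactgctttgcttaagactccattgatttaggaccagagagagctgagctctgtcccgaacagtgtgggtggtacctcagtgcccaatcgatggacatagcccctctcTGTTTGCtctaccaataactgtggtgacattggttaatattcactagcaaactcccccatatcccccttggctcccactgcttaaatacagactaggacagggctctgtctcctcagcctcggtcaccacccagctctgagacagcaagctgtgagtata

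TATAAA was in the windows of 3 of the 8 genes and in 13.6% of the 32851 windows of the table. It began 31 bases before the start of both Crp and Pgc, on the strand of the gene, and 128 bases before that of Cyp2j5 on the opposite strand. CAAAGT was in the windows of Crp (63 bases before the start) and Entpd8 (14 bases before), against 14.4% of all windows. TGTTTAC was in the window of Cyp2j5, 249 bases before the start (3.65% of all windows), and TGTTTGC in that of Serpina1e, 110 bases before the start (5.07%). CAAAGTCCA (0.475% of all windows) and TTGCGCAA (0.183%) were in none of the 8, and the windows of Pzp, Habp2 and Gpx3 held none of the letters searched. A match is a description of the sequence and was not tested for binding.

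Pzp-positive cells made up 20%, 25.3% and 31.8% of the cells that passed in each pool, or 65 of 250 cells (26%). Pzp encodes pregnancy zone protein, a large inhibitor of the macroglobulin family that traps proteases, and lies at chr6:128483567-128526720 on the minus strand (mm10), where it overlaps the antisense gene Gm10069. In Pzp-positive cells its median was 461, 861 and 1092 CPM per pool, and cells ranged from 104 to 2538 CPM. In the other 185 cells the highest value was 92.2 CPM, and 133 of them held no read of Pzp. Only 6 of the 250 cells had between 50 and 200 CPM, so few cells lay near the threshold. Of the 65 Pzp-positive cells, 62 held at least 10000 CPM of Cck, 9 held as much Nts, 1 as much Gcg and 0 as much Gip.

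The markers of other cell types in Pzp-positive cells moved in several directions. Of 6 goblet cell markers, the summed level had medians of 7724, 8280 and 10010 CPM per pool, against 1665, 3287 and 4534 CPM in Cck-high cells. Tff3, a trefoil peptide of mucus (medians 2969, 3093 and 5064 CPM), and Agr2, a disulfide isomerase of secretory cells (3288, 4492 and 4454 CPM), made up most of this sum, while the medians of the goblet cell mucin Muc2 were 0 in every pool and Clca1 had no read in any of the 65 cells. Fcgbp, also among the 6, had medians of 66.1, 104 and 184 CPM, against 0, 0 and 1.88 CPM in Cck-high cells. Of 8 pan-endocrine markers the summed level had medians of 5240, 4397 and 8832 CPM, below the 16523, 17486 and 35620 CPM of Cck-high cells, beside the 1670, 5248 and 5515 CPM of Gip-high cells. Of 8 hepatocyte markers the summed medians were 379, 359 and 329 CPM, against 170, 200 and 524 CPM in Gcg-high cells, which stood higher in the deep pool, and 23.8, 85.7 and 235 CPM in Cck-high cells. Ttr held most of it in Pzp-positive cells (medians 352, 184 and 307 CPM), and Ahsg, Fga and Mup20 had no read in Pzp-positive cells. Of 10 enterocyte markers the summed medians were 2054, 2168 and 3203 CPM in Pzp-positive cells, below the 2838, 2498 and 3889 CPM of Cck-high cells and above the 664, 1369 and 650 CPM of Gip-high cells. In Gcg-high cells they were 1787, 2252 and 2158 CPM. Of 6 immune cell markers the summed medians were 182, 92.2 and 0.429 CPM in Pzp-positive cells, beside 132, 61.2 and 0.523 CPM in Cck-high cells. Gip/Gcg/Cck-low cells had medians of 2172, 262 and 1.90 CPM of them and means of 116201, 71797 and 393 CPM. The median summed levels of Paneth, tuft and stem cell markers were all below 1 CPM in Pzp-positive cells. The part of these markers in the levels of the 8 genes was not tested.

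Serpina1e (chr12:103946931-103958975, minus strand) encodes a form of alpha-1-antitrypsin, the plasma inhibitor of elastase, and was read in fewer Pzp-positive cells than the other 7 genes. Its median in Pzp-positive cells was 0, 0 and 12.5 CPM per pool although single cells reached 590, 770 and 1546 CPM. It passed 100 CPM in 17 of the 65 cells. Serpina1e thus had a mean of 127 ± 32.3 CPM (SD over 3 pools) that rested on a minority of Pzp-positive cells, beside 6.23 ± 3.10 CPM in the Gip-high, Gcg-high and Cck-high cells together (Pzp-low hormone-high cells) and 55.8 ± 15.1 CPM in Gip/Gcg/Cck-low cells. In the last class all 8 cells with at least 100 CPM also held 10000 CPM of Nts, and without the 12 cells of high Nts the mean was 3.78 ± 6.55 CPM. Of the 1526 stretches of 50 bases in a transcript of Serpina1e, 35.6% were also in a transcript of Serpina1a, Serpina1b, Serpina1c or Serpina1d, so that its reads can be confused with those of its neighbours on chromosome 12.

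Pgc (chr17:47726842-47734482, plus strand) encodes progastricsin, the precursor of a pepsin of the stomach. Its median in Pzp-positive cells was 99.7, 301 and 362 CPM per pool, and cells ranged from 0 to 3800 CPM. In Pzp-low hormone-high cells the highest cell held 140 CPM and the medians were 0, 0 and 0.407 CPM. The means were 671 ± 126 CPM in Pzp-positive cells, 4.3 ± 3.4 CPM in Pzp-low hormone-high cells and 122 ± 24.6 CPM in Gip/Gcg/Cck-low cells (SD over 3 pools). The ranges of single Pzp-positive and Gip/Gcg/Cck-low cells overlapped, since 9 of 66 Gip/Gcg/Cck-low cells held at least 100 CPM and the highest 2219 CPM. Of these 9 cells 8 were among the 12 of high Nts, without which the mean of the class was 19.9 ± 33.2 CPM.

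Habp2 (chr19:56287137-56320822, plus strand) encodes a plasma serine protease that binds hyaluronan, and of the 7 other genes it was the one that kept closest to Pzp. Its median in Pzp-positive cells was 55.1, 147 and 359 CPM per pool, with cells between 0 and 1012 CPM. Of 44 cells with at least 100 CPM of Habp2, 43 were Pzp-positive (97.7%), and these were 66.2% of the Pzp-positive cells. Pool SLX-11175 had no read of Habp2 in any of its 37 Pzp-low hormone-high cells. The mean level was 225 ± 138 CPM in Pzp-positive cells against 1.99 ± 2.24 CPM in Pzp-low hormone-high and 2.88 ± 3.30 CPM in Gip/Gcg/Cck-low cells (0.273 ± 0.473 CPM without those of high Nts). In the annotation Habp2 overlaps Nrap on the opposite strand, and the protocol does not keep the strand.

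Crp (chr1:172698055-172833031, plus strand) encodes C-reactive protein, a pentraxin, and its annotated span contains the pseudogene Gm38051 on the same strand. Its median in Pzp-positive cells was 156, 176 and 273 CPM per pool, and 49 of the 65 cells had at least 100 CPM. The mean was 250 ± 92.4 CPM, beside 16.6 ± 3.25 CPM in Pzp-low hormone-high cells and 14.4 ± 5.71 CPM in Gip/Gcg/Cck-low cells (6.23 ± 6.64 CPM without those of high Nts). The highest Pzp-low hormone-high cell held 329 CPM, so the single cells of the groups overlapped while the 3 pool means did not.

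Gpx3 (chr11:54902453-54910377, plus strand), whose protein reduces hydroperoxides outside the cell, reached 100 CPM in more cells than any other of the 8 genes. Its median in Pzp-positive cells was 548, 170 and 1086 CPM per pool and no such cell was without a read, the lowest holding 11.6 CPM. It passed 100 CPM in 90 cells, of which 55 were Pzp-positive (61.1%). The mean of 733 ± 447 CPM in Pzp-positive cells stood beside 207 ± 141 CPM in Gip-high, 230 ± 77.7 CPM in Gip/Gcg/Cck-low, 42.2 ± 14.1 CPM in Cck-high and 24.4 ± 36 CPM in Gcg-high cells. The Gip-high mean of the deep pool rested partly on a cell with 2037 CPM, and the median there was 53.1 CPM. Of 18 Gip/Gcg/Cck-low cells with at least 100 CPM, 12 were those of high Nts, and without them the mean of the class was 44.3 ± 35.2 CPM.

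Cyp2j5 (chr4:96628773-96664154, minus strand) had medians of 102, 237 and 553 CPM in Pzp-positive cells, with cells from 0 to 3317 CPM. Its mean was 394 ± 243 CPM in Pzp-positive cells against 9.46 ± 5.20 CPM in Pzp-low hormone-high and 9.82 ± 8.50 CPM in Gip/Gcg/Cck-low cells (7.12 ± 8.81 CPM without those of high Nts). Entpd8 (chr2:25080304-25085716, plus strand, overlapping Noxa1 on the opposite strand) was not as closely tied to Pzp. Its medians in Pzp-positive cells were 99.2, 99.0 and 140 CPM, its mean was 164 ± 25.9 CPM, and the Gip/Gcg/Cck-low cells had a mean of 128 ± 67.6 CPM in which 9 of 66 cells were at 100 CPM or more and the highest at 2568 CPM. Of these 9 cells 4 were of high Nts, and without the 12 such cells the mean was 66.1 ± 73.4 CPM. In Pzp-low hormone-high cells the mean of Entpd8 was 36.4 ± 17.2 CPM, and 9 of the 29 Gip-high cells held at least 100 CPM. Single cells of Pzp-low hormone-high type reached 514 CPM of Entpd8, and 33 of the 58 cells with at least 100 CPM were Pzp-positive (56.9%).

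**Figure D1:**
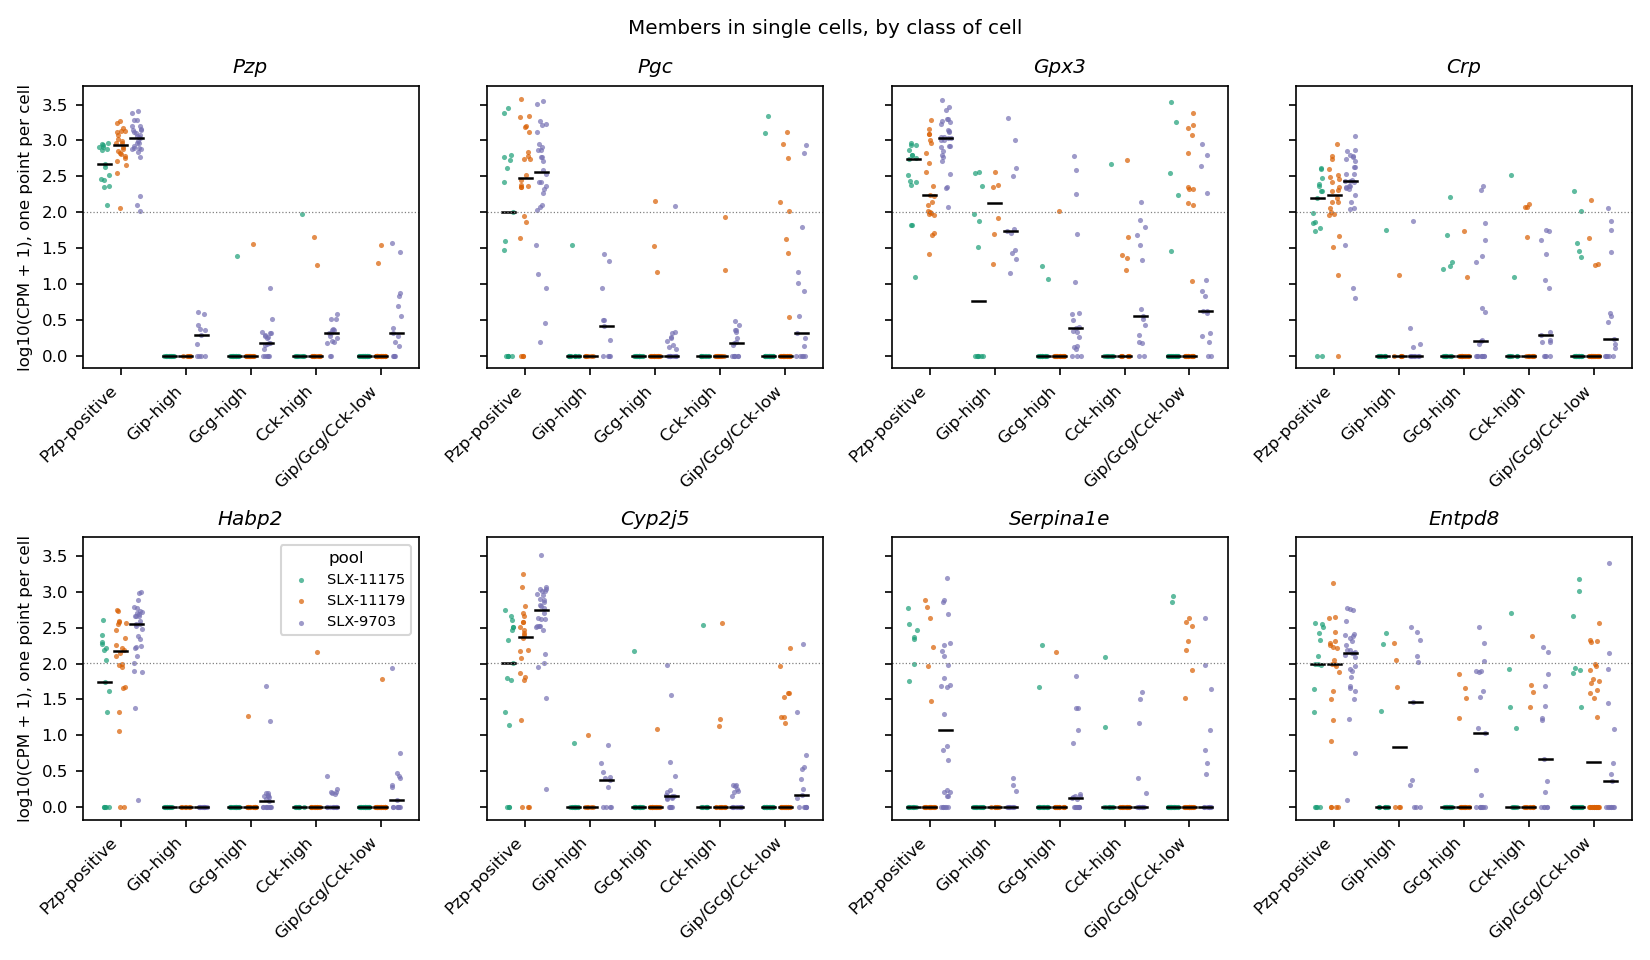
Each point is a cell, its height the log10 of the CPM of the gene plus 1 and its colour the pool. Black bars are medians of the cells of a pool and class, and the dotted line marks 100 CPM. Habp2 and Cyp2j5 are high almost only in Pzp-positive cells, whereas Gpx3, Entpd8, Pgc and Serpina1e also have high cells in the Gip/Gcg/Cck-low class, of which 12 of 18, 4 of 9, 8 of 9 and 8 of 8 held at least 10000 CPM of Nts.

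Cells with a read were counted at the deposited depth and after thinning. In the deep pool 75.6% of the 45 Pzp-low hormone-high cells had at least 1 read of Pzp, and after each cell was thinned to 20000 reads the share was 4.44%, beside 5.41% and 2.70% in the shallow pools. Thinned in the same way, Gpx3 was seen in 18.9%, 27% and 35.6% of the Pzp-low hormone-high cells and in 93.3%, 95.5% and 100% of the Pzp-positive cells. All Pzp-positive cells kept a read of Pzp.

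Levels of different genes were compared per kilobase of exon, with all annotated exons of a gene joined. In Pzp-positive cells Pgc stood highest at 484 ± 91.1 CPM per kilobase (SD over 3 pools), followed by Gpx3 at 404 ± 247, Cyp2j5 at 168 ± 104 and Pzp at 135 ± 46.4. Serpina1e at 78.4 ± 20.0, Crp at 72.5 ± 26.8, Habp2 at 70.6 ± 43.2 and Entpd8 at 60.5 ± 9.53 came after these. On the same scale Tph1, which encodes the enzyme that starts serotonin synthesis, stood at 46.9 ± 38.7. The ranges of the pools overlapped between neighbours at each step of this order. The order also depends on the length used. Joined exons measure 3444 bases for Crp and 6414 for Pzp, against 1894 and 4681 bases in their longest transcripts. Pools differed in the same direction for several genes: Pzp, Gpx3, Habp2, Cyp2j5 and Crp had their lowest mean in pool SLX-11175 and their highest in pool SLX-9703. Depth and mouse cannot be told apart between the pools.

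Across all cells of a pool the 8 genes were positively correlated in each of their 28 pairs. The median of Spearman's rho over the pairs was 0.503, 0.535 and 0.579 in the pools, over 75, 87 and 88 cells. These values are descriptions: cells of a pool share a library preparation and a mouse, and a gene read only in Pzp-positive cells must correlate with Pzp. Averaged over the pools, Pzp and Habp2 were the most alike pair (0.771), followed by Pzp and Crp (0.707) and by Habp2 and Cyp2j5 (0.694). The lowest was that of Serpina1e and Entpd8 (0.234), and all pairs of Serpina1e with another of the genes lay between that value and 0.481, the value with Pgc. With the cells thinned to 20000 reads the mean over pools had a median of 0.563 over the pairs.

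Within Pzp-positive cells alone much of this was gone. The median of rho over the 28 pairs was 0.0684, 0.200 and 0.175 over 15, 22 and 28 cells. The pairs that remained highest in the mean over pools were Pgc with Gpx3 (0.450, from 0.282 to 0.607 in the pools) and Habp2 with Cyp2j5 (0.431, from 0.234 to 0.628). Pzp had a rho of 0.0722 with Pgc and -0.0336 with Gpx3, and its highest values were 0.307 with Habp2 and 0.301 with Crp. The mean over pools had a median of 0.108 over the pairs, with 25 of 28 above 0. In Pzp-low cells that median was 0.194, with 28 of 28 above 0 and Pgc with Gpx3 highest (0.410). Habp2 had no read in the Pzp-low cells of SLX-11175, so its pairs there were averaged over the other pools.

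**Figure D2:**
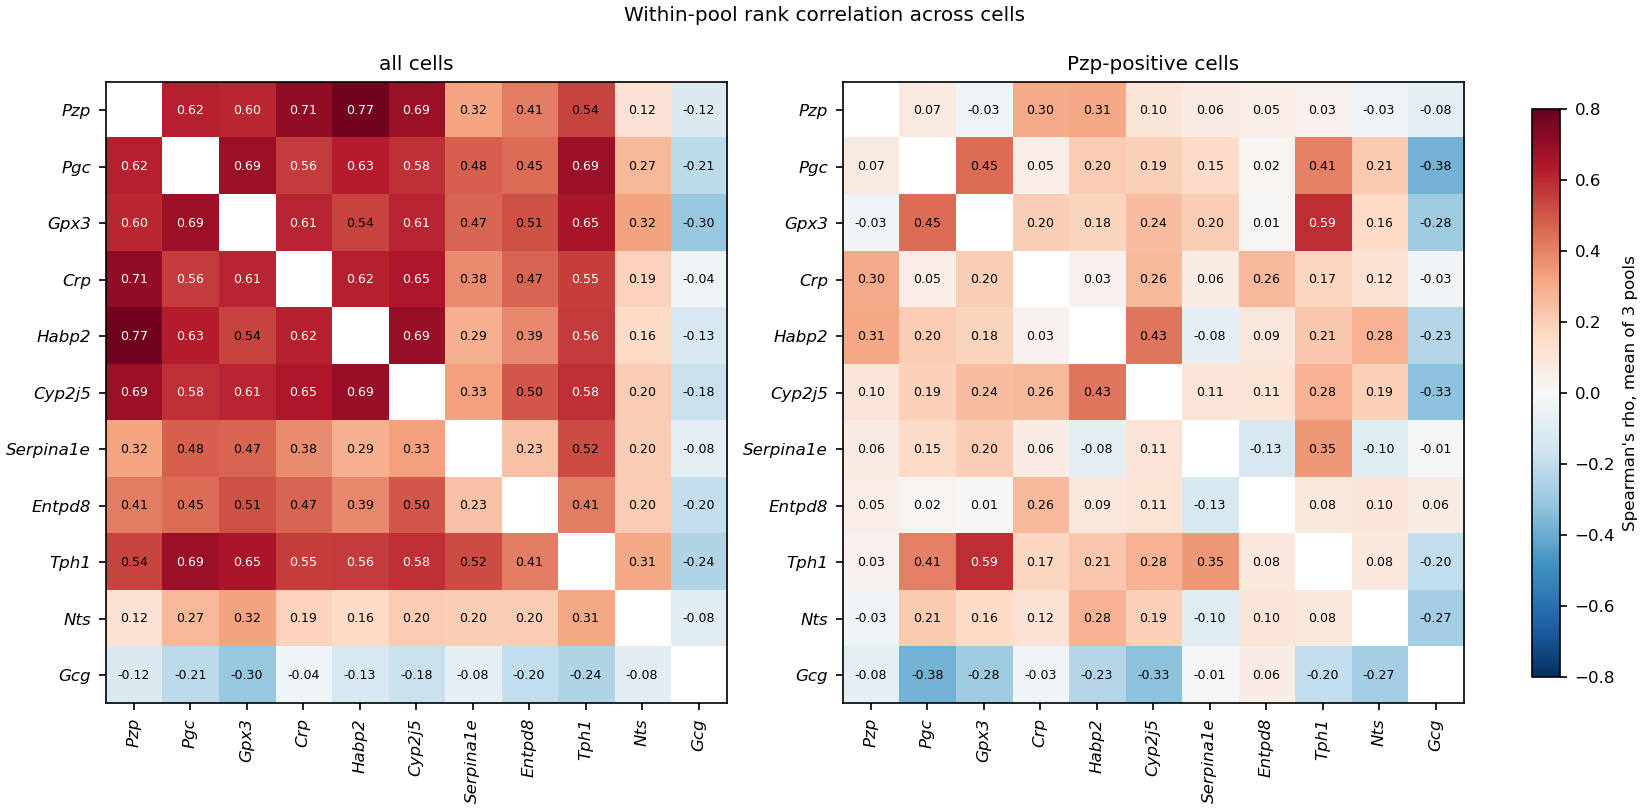
Each square gives Spearman's rho between 2 genes, averaged over the 3 pools, across all cells that passed (left) and across Pzp-positive cells (right). The red block of the 8 genes and Tph1 on the left has a median of 0.553 over the member pairs, and on the right the median is 0.108, with Gpx3 and Tph1 at 0.588 the highest square.

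Pzp-positive cells usually held several of the other genes at once. Counting the 7 other genes at 100 CPM or more, the median cell had 4, 4 and 5 of them per pool, 57 of the 65 cells had at least 3 and 0 cells had none. In the Gip-high, Gcg-high, Cck-high and Gip/Gcg/Cck-low classes the median was 1, 0, 0 and 0, and 12 of 29, 43 of 53, 29 of 37 and 44 of 66 cells had none of them. Since the genes were chosen for this pattern, the contrast describes the choice. Only 11 of 185 Pzp-low cells had 3 or more: 8 of these were Gip/Gcg/Cck-low, 2 Cck-high and 1 Gcg-high.

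**Figure D3:**
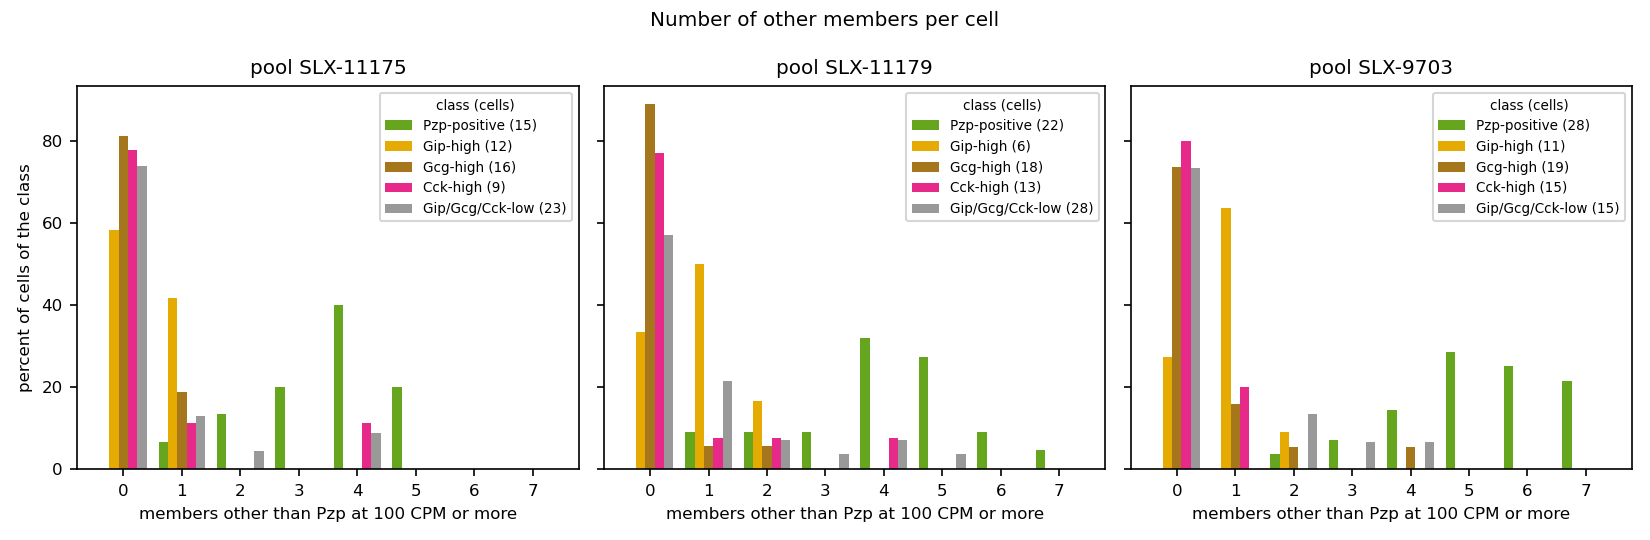
Bars give the percentage of the cells of a class, by pool, that had 0 to 7 of the genes other than Pzp at 100 CPM or more. Pzp-positive cells run from 1 to 7 with none at 0, and most cells of the other classes are at 0 or 1.

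Those 11 cells had a composition of their own, which was noticed after the values had been seen and is given without a test. Gpx3 was at 100 CPM or more in 11 of them, Pgc in 8, Serpina1e in 7, Crp in 7 and Entpd8 in 6, whereas Cyp2j5 was so in 4 and Habp2 in 0. Of the 11 cells, 8 had at least 10000 CPM of Nts, the gene for neurotensin, and 6 had at least 100 CPM of Tph1. Their highest level of Pzp was 92.2 CPM.

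The cells were next grouped by Nts, again after the values had been seen. There were 19 Pzp-low cells with at least 10000 CPM of Nts, 4, 10 and 5 per pool, and of these 12 had less than 10000 CPM of Cck. All 12 held Gpx3 at 100 CPM or more, with a lowest value of 126, a median of 942 and a highest of 3394 CPM. Pgc was at that level in 8 of the 12 (median 354 CPM), Serpina1e in 8 (272 CPM) and Tph1 in 8 (162 CPM). Pzp, by which the cells were chosen as low, had no read in 11 of the 12. Habp2 had none in 9 and never passed 85.1 CPM, Cyp2j5 passed 100 CPM in 1 and Crp in 3. The 12 cells came from all pools, 2, 8 and 2 of them. Pgc and Serpina1e were at 100 CPM or more in 2 and 2 cells of SLX-11175 and in 5 and 5 of SLX-11179. In SLX-9703 they were so in the same 1 of 2 cells (851 and 439 CPM), and the other held 0.777 and 10.9 CPM. The other 7, with at least 10000 CPM of Cck, differed: Pgc never passed 1.15 CPM, Habp2 had no read in any, and Gpx3 passed 100 CPM in 2.

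Pzp-positive cells with at least 10000 CPM of Nts were 9 in number, 3 in each pool. Pgc (lowest cell 221 CPM) and Gpx3 (lowest cell 589 CPM) were above 100 CPM in all 9, Cyp2j5 in 8, Habp2 in 7, Crp in 5 and Serpina1e in 3. The mean over pools of Pgc was 1401 ± 714 CPM in these cells and 569 ± 48 CPM in the 56 Pzp-positive cells with less Nts. Within pools Pgc was higher with Nts in 3 of 3, at 577 against 513, 1781 against 594 and 1844 against 599 CPM. The means of Gpx3 were 799 against 381, 1350 against 349 and 1495 against 1220 CPM, but in pool SLX-9703 a cell with 2882 CPM raised the mean and the median was lower with Nts (1015 against 1095 CPM). The means of Cyp2j5 were 191 against 188, 892 against 243 and 1518 against 559 CPM, and in pool SLX-11175 its median was lower with Nts (102 against 137 CPM). The means of Habp2 were 154 against 93.4, 428 against 158 and 511 against 360 CPM, with a lower median in pool SLX-11175 as well (55.1 against 76.3 CPM). The other genes differed in direction between pools. The means of Serpina1e were lower with Nts in 2 of 3 pools (111 against 127, 146 against 88.5 and 61.2 against 173 CPM), those of Crp in SLX-11175 (100.3 against 182, 314 against 222 and 613 against 317 CPM) and those of Entpd8 in SLX-11179 (167 against 126, 173 against 182 and 278 against 166 CPM). Each of these means with high Nts rests on 3 cells. With 3 pairs of pools and groups formed after the values were seen, these differences were not tested. Pzp itself stood at 789 ± 490 against 888 ± 254 CPM. In the 166 Pzp-low cells with less Nts, Pgc stood at 7.84 ± 8.52 CPM and Gpx3 at 63.4 ± 49.6 CPM. Nts alone took up to 41.7% of the reads of a Pzp-low cell, which lowers the CPM of every other gene in such a cell.

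**Figure D4:**
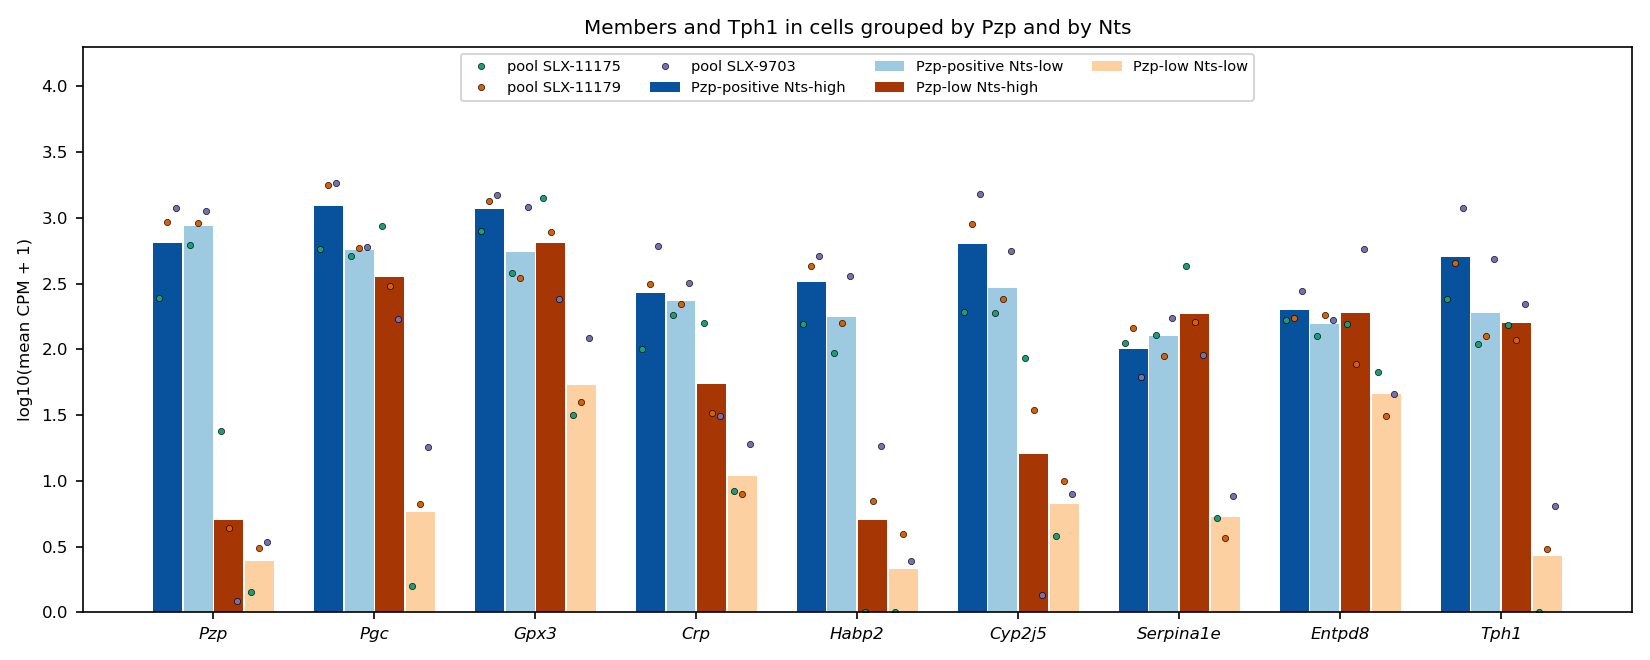
For each gene, a bar is the mean over 3 pools of log10(mean CPM + 1) of the cells in a group and the points are the pools. Groups are split at 100 CPM of Pzp and 10000 CPM of Nts, with 9, 56, 19 and 166 cells in the order of the bars. The means of Gpx3, Pgc, Crp, Serpina1e, Entpd8 and Tph1 are higher in Pzp-low Nts-high than in Pzp-low Nts-low cells in each pool, but few cells carry some of them: Pgc passed 100 CPM in 8 and Entpd8 in 6 of the 19 cells, and a cell with 2568 CPM is in the deep-pool mean of 576 CPM of Entpd8.

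Of 49 cells with at least 100 CPM of Tph1, 47 also had 100 CPM of Gpx3 (95.9%), 38 of Pzp and 38 of Pgc (77.6% each), and 28 of Habp2 (57.1%). Across all cells the rho of Tph1 averaged over pools was highest with Pgc (0.694) and Gpx3 (0.653) and lowest with Entpd8 (0.411). Within Pzp-positive cells Gpx3 kept a rho of 0.588 with Tph1 (from 0.367 to 0.756 in the pools), Pgc one of 0.406 (from 0.127 to 0.659) and Serpina1e one of 0.348 (from -0.0192 to 0.545, so that a pool had no positive value), while Pzp had one of 0.0324. In Pzp-low cells Pgc and Tph1 had a rho of 0.538.

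Cells with high Tph1 were compared with cells with low Tph1 among the Pzp-positive cells. This contrast uses the same cells as the rho of Tph1 given above and restates that relation at the level of pools, so it is not independent of it. The cells of each pool were divided at the pool's median of Tph1, their counts were summed, and 7, 11 and 14 cells entered the high sums and 8, 11 and 14 the low sums. The lowest cell of the high side held 117, 22.9 and 567 CPM of Tph1. The highest cell of the low side held 113, 0 and 382 CPM. Gpx3 stood at 703, 860 and 1525 CPM in the Tph1-high sums and at 275, 243 and 940 CPM in the Tph1-low sums. It was higher with Tph1 in 3 of 3 pools (log2 fold change 1.38, SE 0.32), but the edgeR quasi-likelihood test over 6743 genes gave an adjusted p of 0.999 and DESeq2 gave 0.0435. Pgc stood at 808, 1012 and 884 CPM against 164, 944 and 491 CPM (log2 fold change 1.13, SE 0.38, adjusted p 0.999 by edgeR). Cyp2j5 (0.73, SE 0.31) was also higher in 3 of 3 pools and Serpina1e (1.56, SE 0.71) in 2 of 3, both with an edgeR adjusted p of 0.999. The log2 fold change of Pzp was -0.08 (SE 0.24) and its sign depended on the setting.

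edgeR called 0 of the 6743 genes in this contrast (percent called 0), with 183 genes at an unadjusted p under 0.05, and Tph1 itself, left out of that count, had an adjusted p of 0.999. These 183 are a smaller share of the genes tested than the 0.05 that evenly spread p-values would give. DESeq2 called 3 genes, which were Gpx3, Klhl13 and Slc29a4. The call of Gpx3 depends on the tool and on the filter on low counts, since edgeR gave it an adjusted p of 0.00138 without that filter. Pgc was called by edgeR without pool SLX-11179 (log2 fold change 1.54, adjusted p 0.0191) and not with it.

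The same was done for Nts and for Gcg. Nts-high here means above the median of Nts among the Pzp-positive cells of the pool, where the lowest cell of the high side held 149, 115 and 8.51 CPM, and not the 10000 CPM used before. Gip-high cells had Nts medians of 94.3, 76.2 and 7.95 CPM, so the division lay not far above levels in other cells. In the Nts contrast Gpx3 stood at 527, 786 and 1266 CPM in the Nts-high sums and at 442, 311 and 1230 CPM in the Nts-low sums (log2 fold change 0.54, SE 0.28), and Cyp2j5 at 247, 541 and 842 CPM against 152, 375 and 492 CPM (0.67, SE 0.26). Both were higher in 3 of 3 pools, and both had an adjusted p of 1.00 by edgeR. Pgc stood at 636, 960 and 753 CPM against 311, 992 and 647 CPM, higher in 2 of 3 pools (log2 fold change 0.39, SE 0.27, adjusted p 1.00 by edgeR). In the Gcg contrast Pgc stood at 162, 756 and 481 CPM in the Gcg-high sums and at 723, 1186 and 983 CPM in the Gcg-low sums, lower in 3 of 3 pools (log2 fold change -1.11, SE 0.32, adjusted p 0.999 by edgeR). Cyp2j5 (-0.54, SE 0.28) was also lower in 3 of 3 pools and Serpina1e (0.79, SE 0.37) higher in 3 of 3, neither past the threshold. edgeR called 0 of 6777 genes with 159 at an unadjusted p under 0.05 in the Nts contrast and 0 of 6784 with 157 in the Gcg contrast (percent called 0 in both). The 159 and the 157 are again a smaller share of the genes tested than 0.05. DESeq2 called 3 genes in the Nts contrast (Gcg, Slc29a4 and Eif4enif1) and 2 in the Gcg contrast (Ghrl and Pyy), none of them among the 8. The 3 contrasts share the same cells and are not independent of each other.

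**Figure D5:**
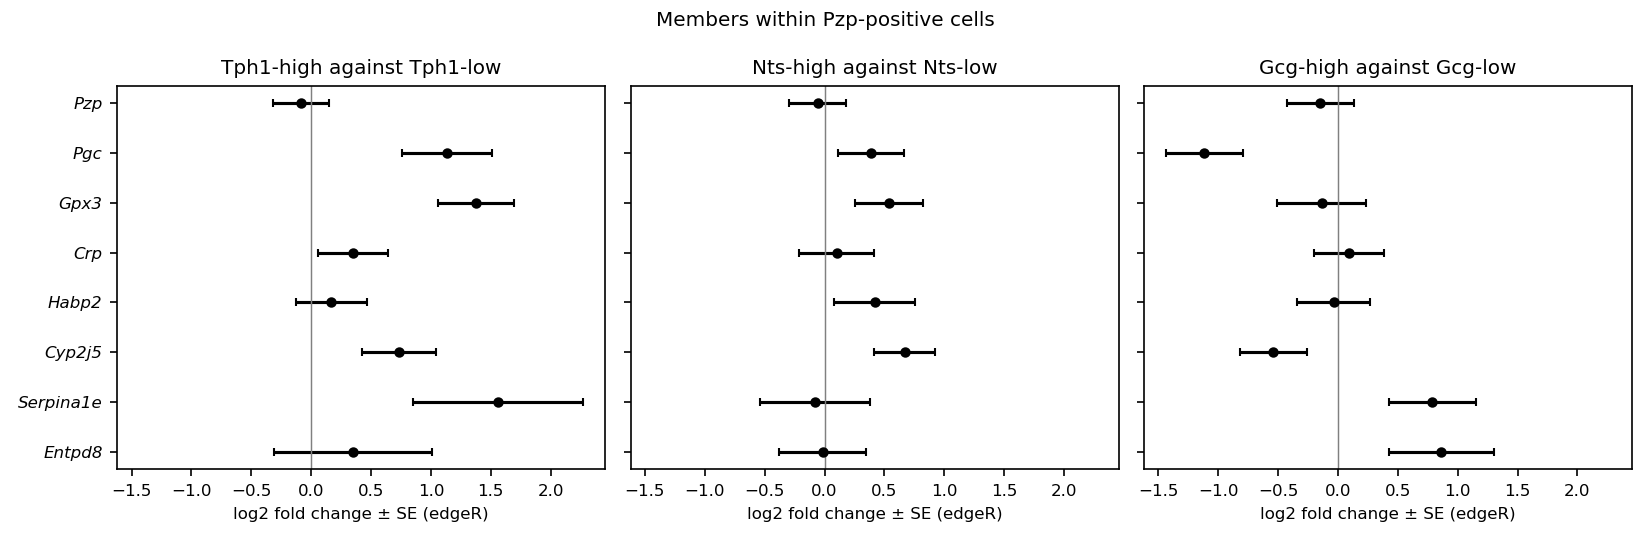
Points are log2 fold changes of the 8 genes within Pzp-positive cells, for cells above against below the median of Tph1, Nts or Gcg over 3 pools. The SE are those implied by the F statistic of the edgeR test. Gpx3 at 1.38 with Tph1 and Pgc at -1.11 with Gcg lie farthest from 0 relative to their SE, and none of the points passed the adjusted threshold.

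Gcg was low in Pzp-positive cells (medians 778, 135 and 292 CPM per pool), and 1 of the 65 reached 10000 CPM. Across all cells the rho of Gcg with the 8 genes, averaged over pools, ran from -0.300 (Gpx3) to -0.0352 (Crp), and with Nts from 0.116 (Pzp) to 0.319 (Gpx3). The values with Gcg differed between pools. Their median was -0.0378, -0.0958 and -0.333, and within Pzp-positive cells it was -0.416, 0.0296 and -0.199.

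With the 8 genes themselves left out, the genes that varied most like Pzp, among 5333 genes with a read in at least 20% of the cells of every pool, were Onecut3 (mean rho over pools 0.743), Rgs2 (0.728), Agr3 (0.665), Cyp2j6 (0.658) and Tff3 (0.655). Onecut3 encodes a transcription factor with a cut domain and Rgs2 a regulator of G protein signalling. Among these genes Onecut3 was also first for Cyp2j5 (0.748), Crp (0.697), Gpx3 (0.652), Pgc (0.634) and Entpd8 (0.508), and second for Habp2 (0.683) after Rgs2 (0.696). For Pgc, Fcgbp (0.602) and D930028M14Rik (0.589) followed, for Gpx3, D930028M14Rik (0.547) and Serpina1b (0.545), and for Crp, Rgs2 (0.676) and Serpina1b (0.628). Agr3 (0.658) came next for Habp2, Rgs2 (0.649) and D930028M14Rik (0.632) followed for Cyp2j5, and D930028M14Rik (0.447) and Fcgbp (0.447) for Entpd8. Serpina1e differed, with Qpct (0.502), which encodes an enzyme that closes the N terminus of peptides, D930028M14Rik (0.473) and Rflna (0.438). Genes read in few cells could not enter this comparison.

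The relatives and plasma companions of the 8 genes were tested in Pzp-positive against Pzp-low hormone-high cells with summed counts (65 against 119 cells, 3 pools each). Of 10537 genes tested, 47 were higher (0.446%) and 48 lower (0.456%) in Pzp-positive cells, 95 in all (0.902%), by edgeR at an adjusted p under 0.05. CPM are given per total of a sum, whereas log2 fold changes follow TMM scaling, which moved them by -0.31 on average over pools from the ratio of the CPM. The lists were chosen with earlier results known. Division by Pzp also uses the same cells as the rho with Pzp given above. Calls of Onecut3 and Cyp2j6, which were among the genes most alike to Pzp, restate that relation and are not independent of it. The same holds for Serpina1b, whose mean rho over pools with Pzp was 0.631. Among 42 plasma proteins of the liver, 12 had enough reads to be tested and 1 was higher (median log2 fold change 0.48 over the 12 against -0.07 over all genes tested). That gene was Ambp, which encodes the precursor of alpha-1-microglobulin and bikunin: it stood at 504, 780 and 1359 CPM in Pzp-positive and at 66, 77.8 and 34.1 CPM in Pzp-low hormone-high sums, with no overlap (log2 fold change 3.54, SE 0.48, adjusted p 0.0187). Rbp4, the carrier of retinol in plasma, was the most abundant at 1843 ± 316 against 948 ± 95.4 CPM (log2 fold change 0.64, adjusted p 0.245), and Ttr stood at 305 ± 16.9 against 158 ± 97.3 CPM (adjusted p 0.466). Of the 42 genes, 8 had no read in either group.

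Close relatives did not all share the pattern. Of 7 relatives of Cyp2j5, 2 were tested and Cyp2j6 was higher, at 401, 378 and 606 against 74.2, 60.5 and 105 CPM (log2 fold change 2.22, SE 0.20, adjusted p 0.00377 by edgeR). Of 11 relatives of Serpina1e, 4 were tested and Serpina1b was higher, at 208, 304 and 342 against 29.9, 26 and 37.1 CPM (2.87, SE 0.23, adjusted p 0.00245), with the shared sequence named above. Serpina1d stood at 62.6 ± 36 against 15.5 ± 14 CPM (adjusted p 0.530) and Serpina1c at 19.3 ± 9.41 against 18.7 ± 11.9 CPM (adjusted p 0.975). Of 6 genes listed with Pzp as macroglobulins, 1 was tested: A2ml1 stood at 28.8 ± 6.94 against 12.9 ± 8.05 CPM (log2 fold change 0.96, adjusted p 0.605 by edgeR), and A2m had 0 reads in Pzp-positive cells and 1 in the other group. Of 7 glutathione peroxidases beside Gpx3, 3 were tested and none passed, with Gpx2 at 55.2 ± 29 against 76.8 ± 27.5 CPM and Gpx1 at 61 ± 20.1 against 57.3 ± 32.7 CPM. None of the 7 pentraxins listed with Crp had enough reads to be tested.

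Of 12 coagulation and hyaluronan-related proteases listed with Habp2, 4 were tested and none passed (median log2 fold change 1.15). Hgfac, the activator of hepatocyte growth factor, stood at 141 ± 51.9 against 51.3 ± 18.2 CPM (log2 fold change 1.11, adjusted p 0.339) and F2, the gene for prothrombin, at 62.9 ± 29.1 against 21.2 ± 7.83 CPM (1.2, adjusted p 0.308 by edgeR). Of 9 ectonucleotidases beside Entpd8, 6 were tested and Entpd3 was lower: 1 read was counted in Pzp-positive and 1353 in Pzp-low hormone-high cells, 837-fold lower per read sequenced with an interval from 150 to 33071 that covers counting error alone (adjusted p 0.0160 by edgeR). The 837-fold pools the reads of all pools, and most of these came from SLX-9703. The fitted log2 fold change was -9.61 and ran from -9.80 to -7.58 in the alternatives. Entpd3 missed the threshold without SLX-11175 and without SLX-9703. Nt5e, which encodes the enzyme that makes adenosine from AMP, stood at 212 ± 94.2 against 39.2 ± 19.9 CPM, higher in 3 of 3 pools (log2 fold change 2.12, SE 0.39, adjusted p 0.0682). Of 7 aspartic proteases beside Pgc, 3 were tested and none passed, and of 14 genes of the gastric epithelium none could be tested, with Gast at 4.4 ± 1.87 against 0.679 ± 0.942 CPM the most abundant.

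A list of 19 transcription factors joined factors known from the liver with relatives of such factors, and 14 were tested. Of these 1, Onecut3, was higher, at 134, 294 and 300 against 36.9, 12.2 and 33.8 CPM (log2 fold change 2.88, SE 0.45, adjusted p 0.0318 by edgeR). Onecut3 is listed as a relative of Onecut1, and its place on the list does not make it a factor of the liver. Prox1 stood at 142 ± 38.2 against 54 ± 13.6 CPM (1.06, adjusted p 0.142) and Onecut2 at 161 ± 30.6 against 108 ± 19.8 CPM (0.26, adjusted p 0.794). Hnf4a stood at 76.6 ± 10.5 against 63.3 ± 6.73 CPM (log2 fold change -0.03 after the TMM scaling, adjusted p 0.984). The median log2 fold change of the 14 was 0.25.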

How the data were processed

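Single cells were sorted into wells and sequenced by Smart-seq2, which keeps no strand and adds no molecular identifiers, so that binomial intervals cover counting error only. The authors deposited raw, not normalized read counts of each gene in each cell as a single table. Reads were aligned to mm10 with GSNAP (version 2015-09-29) and counted with HTSeq (version 0.5.3p3), as the submitters' processing notes name them. The strand setting of the counting is not given in the sources used here. The table covers 46078 mouse genes, 92 spike-ins and 5 lines for reads assigned to no gene. These lines hold 77.6% of all counts (66.5% not aligned, 9.45% in no feature and 1.68% ambiguous). They were left out, as were 4 columns that match no sample. GENCODE M21, on the same build, gave symbols for 45143 identifiers. Promoter windows are from RefSeq.

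The members, the gene lists and the rules were chosen with earlier results of these data known. The genes named are the 8 members, Tph1, Nts and Gcg, the genes most alike to each member (5 for Pzp and 3 for each other), and of each list the genes that passed the test (up to 6) and the most abundant ones. Hnf4a, the single markers of other cell types and the genes called by DESeq2 alone were named after their values were seen.

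Cells with 20000 or more reads on mouse genes and at most 20% mitochondrial reads were kept. No doublet caller was run. For each class, the counts of a pool's cells (3 or more) were added up, scaled by TMM, filtered by filterByExpr and tested with edgeR 4.0.16 (quasi-likelihood, two-sided, Benjamini-Hochberg over all genes tested, threshold 0.05, R 4.3.3), with the pool as a block since both sides of a contrast come from the same pool and, by the study's methods, mouse. Over genes with a mean above 10 CPM, the deviations of the 2 sums of a pool from their group means had correlations of 0.192, 0.185 and 0.534 in the Pzp contrast and of 0.0594 to 0.346 in the others. Genes that defined a contrast were not counted as called. The SE of a log2 fold change was derived from the edgeR test, as its size divided by the square root of the quasi-likelihood F. Spearman's rho was taken within each pool. The scripts were tested on simulated counts. Alternatives were DESeq2 1.42.0, RLE size factors, no filter, no block, other depth, mitochondrial and Pzp thresholds, thinning to 20000 reads and leaving out each pool. With the pool as a block, differences between pools are taken out. The p-values measure how evenly the difference between the 2 sums of a pool recurred over the 3 pools.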

Additional observations from a re-analysis of the deposited data

How the results depend on the processing

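The share of Pzp-positive cells stayed between 20.4 and 28.8% and the median rho between the member pairs between 0.522 and 0.586 in every alternative run for them. The count of 95 genes in the Pzp contrast was 389 without the filter on low counts, 384 with DESeq2 and 157 with cells thinned to 20000 reads, and leaving out a pool gave 61 (without SLX-9703) to 235 (without SLX-11179). The cause was not tested. In place of 0 calls, the Tph1, Nts and Gcg contrasts gave 6, 7 and 7 without the filter, 3, 3 and 2 with DESeq2, and 0 to 4, 0 to 7 and 0 to 7 when a pool was left out, 0 without SLX-9703 and the highest without SLX-11179. Without SLX-11175 they gave 1, 1 and 6. Removing the pool as a block (no replicate block) gave 104 genes in the Pzp contrast and 0 in the others. Ambp missed the threshold with a minimum of 50000 reads (log2 fold change 3.28, adjusted p 0.0664), and Onecut3 with that minimum (2.81, 0.0541) and without SLX-9703 (2.91, 0.0553). Entpd3 missed it without SLX-11175 (-9.67, 0.0910) and without SLX-9703 (-7.58, 0.207). Nt5e passed it in 6 of 13 alternatives, Hgfac in 3, Prox1 in 2 and Rbp4 in 2. Cyp2j6 and Serpina1b passed in 13 of 13.

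None of the 24 log2 fold changes of members in the Tph1, Nts and Gcg contrasts was called by edgeR as first run. Among the alternatives, Gpx3 was called with Tph1 by DESeq2 (adjusted p 0.0435) and without the filter (0.00138), and Pgc without SLX-11179 (0.0191). Several small values changed sign. With Tph1, Pzp was 0.090 with thinned cells, 0.059 with a Pzp threshold of 20 CPM and 0.10 with one of 500 CPM. Habp2 was -0.067 with the latter. Entpd8 was -0.51 thinned, -0.060 at 500 CPM and -0.10 with no replicate block, and -0.41 to 1.41 when a pool was left out. With Nts, Entpd8 was 0.091 thinned, 0.84 with a minimum of 50000 reads, 0.14 at 20 CPM and 0.0097 at 500 CPM, and -0.38 to 0.46 when a pool was left out. In the same leave-one-out Pzp ran from -0.18 to 0.090, Crp from -0.24 to 0.35 and Serpina1e from -0.72 to 0.41. With Gcg, Pzp was 0.26 and Habp2 0.16 at 500 CPM, Gpx3 was 0.043 with no replicate block, and Crp was -0.28 thinned, -0.14 with a minimum of 50000 reads and -0.14 at 20 CPM. Leaving out a pool there gave -0.47 to 0.12 for Pzp, -0.53 to 0.43 for Gpx3, -0.28 to 0.15 for Habp2 and -0.14 to 0.30 for Crp. A read was worth 19 and 14.1 CPM at the median depth of the shallow pools, which limits the precision of low levels there.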
